A study of Mus musculus with 2 samples.

Results

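The genes described here are 6 transcription factors of the cells that form the muscles of the jaw and throat, the branchiomeric muscles: Tbx1, Msc, Tcf21, Lhx2, Myf5 and Myod1. They were chosen by name, as 6 of the 31053 genes listed for the E9.5 library and of the 27998 listed for the E12.0 library. The study sequenced mouse mandibular cells as 2 libraries to describe how the oral epithelium is regionalised. All embryos were K14Cre;R26mT/mG, untreated, and of a single litter at each stage. In these embryos a Keratin 14 promoter drives Cre in epithelium, which switches a reporter from membrane tdTomato to membrane GFP. At E9.5, whole mandibular arches of 8 pooled embryos were dissociated without sorting, so the library held epithelium and mesenchyme together. At E12.0, mandibles of 6 pooled embryos were treated with Dispase II, and GFP-positive cells of the peeled epithelium were sorted. There was 1 library per stage and no replicate, so no test of a difference was possible, and every interval given below is a 95% interval that covers counting error only.

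Muscles of the head arise from pharyngeal mesoderm that moves into the core of each arch, where it is surrounded by neural crest mesenchyme and covered by ectoderm outside and endoderm inside. This mesoderm enters myogenesis without the Pax3 input used in the trunk, and relies on a set of upstream factors that act before or beside the determination genes. Tbx1, a T-box factor, and Lhx2, a LIM homeodomain factor, belong to that upstream set, as do Msc and Tcf21, a pair of related basic helix-loop-helix factors that act redundantly in the muscles of mastication. Myf5 and Myod1 are the basic helix-loop-helix factors that commit a cell to muscle, and Myog, Mymk and Mymx act later, during differentiation and fusion. Tbx1 has a separate role in pharyngeal endoderm, where it is needed for the pouches.

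In GRCm38, the GENCODE annotation places Tbx1 (ENSMUSG00000009097) at chr16:18580979-18590671 on the minus strand and Msc (ENSMUSG00000025930) at chr1:14753346-14755992, also on the minus strand. Tcf21 (ENSMUSG00000045680) lies at chr10:22817281-22820174 and Myf5 (ENSMUSG00000000435) at chr10:107482908-107486134, both on the minus strand. Lhx2 (ENSMUSG00000000247) lies at chr2:38339281-38369733 and Myod1 (ENSMUSG00000009471) at chr7:46376474-46379099, both on the plus strand. All 6 are protein-coding genes. Counts of a 3' library were summed over each whole gene and cannot be divided among transcripts. The RefSeq promoter table (GRCm38.p6) held entries for Tbx1 and Lhx2, with 2 starts each, and for Tcf21 and Myf5. The 250 bases before the start are shown for Tbx1, Tcf21 and Myf5, since these genes stand for the T-box, the early helix-loop-helix and the determination factors that were counted together in the same cells. Capitals mark the E-box CANNTG, the letters bound by helix-loop-helix factors, searched on both strands. The windows lie, in this order, at chr16:18590672-18590921, chr16:18588900-18589149, chr10:22820144-22820393 and chr10:107486135-107486384, all on the minus strand and written 5' to 3'.
Tbx1, outer start: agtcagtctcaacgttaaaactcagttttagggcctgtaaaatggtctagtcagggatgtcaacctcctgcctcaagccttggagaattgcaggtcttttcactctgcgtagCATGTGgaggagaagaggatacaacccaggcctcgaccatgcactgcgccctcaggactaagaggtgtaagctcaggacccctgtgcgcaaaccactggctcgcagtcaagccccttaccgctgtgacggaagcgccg
Tbx1, inner start: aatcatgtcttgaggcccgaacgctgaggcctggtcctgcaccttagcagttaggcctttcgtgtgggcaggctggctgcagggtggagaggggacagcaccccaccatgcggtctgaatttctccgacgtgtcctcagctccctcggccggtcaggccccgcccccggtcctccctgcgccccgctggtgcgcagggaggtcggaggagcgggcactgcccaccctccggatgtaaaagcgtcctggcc
Tcf21: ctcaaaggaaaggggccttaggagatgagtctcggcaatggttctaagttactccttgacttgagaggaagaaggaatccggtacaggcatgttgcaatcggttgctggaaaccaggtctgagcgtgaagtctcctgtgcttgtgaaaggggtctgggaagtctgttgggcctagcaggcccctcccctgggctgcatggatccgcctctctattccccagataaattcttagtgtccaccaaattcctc
Myf5: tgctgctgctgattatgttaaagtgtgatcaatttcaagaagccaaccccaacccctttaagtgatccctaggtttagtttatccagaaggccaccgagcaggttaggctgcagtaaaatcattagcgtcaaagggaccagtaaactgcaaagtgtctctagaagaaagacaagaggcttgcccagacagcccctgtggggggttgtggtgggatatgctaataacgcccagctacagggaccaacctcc
Of the 6 windows of these genes, both Lhx2 windows included, 1 held an E-box, which was CATGTG at 132 bases from the outer Tbx1 start. An E-box was present in 66.2% of 32851 promoter windows of 250 bases. The T-box letters GGTGTGA and the letters TATAAA, also searched on both strands, were in none of the 6 windows and in 3.33% and 12.4% of all windows. The share of G and C ranged from 48.8% in the Myf5 window to 72.8% in a Lhx2 window. A missing match says only that these letters are not in these bases.

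After the filter of 200 to 5500 genes and at most 10% mitochondrial counts per cell, 12744 of 14293 barcodes remained at E9.5, with a median of 13460.5 unique molecular identifiers (UMIs, distinct transcript molecules) per cell and 166191431 in all. At E12.0, 11355 of 11663 barcodes remained, with a median of 6349 UMIs and 77936364 in all. The 2 libraries shared 51 cell barcodes, 44 of them among the cells kept. Scrublet called 331 E9.5 cells (2.60%) and 661 E12.0 cells (5.82%) doublets, which were kept. Levels are given as the UMIs of a gene in the summed cells of a group per 1000000 of all their UMIs (CPM), and detection as the share of cells with at least 1 UMI.

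All 6 genes had their highest level in the same E9.5 cluster, which was found without them: the 6 genes and the listed partner genes were left out of the features used for clustering. The cluster held 1060 cells (median 12247 UMIs) and raised 7 of 10 markers of head or pharyngeal mesoderm (among them Foxc2, Ebf1, Ebf2, Isl1 and Eya1). It is called mesoderm-like here. Its leading genes by fold were Tbx1, Tcf21, Pgf, Lhx2 and Fst. Of its cells, 49 were called doublets. The remaining clusters were neural crest mesenchyme-like (4851 cells), ectodermal epithelium-like (2 clusters, 3661 cells), endoderm-like (586), endothelium-like (572), cardiac muscle-like (257), blood-like (77) and an unnamed cluster of shallow cells (1680 cells, median 3480 UMIs). The marker Isl1 does not single out the mesoderm-like cluster. It was at 85.1 CPM there, 212 in cardiac muscle-like, 131 in endoderm-like and 75.8 and 91.4 in the ectodermal epithelium-like clusters.

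Tbx1 reached 257 CPM [249, 266] in the mesoderm-like cluster and was detected in 81.1% of its cells. All other clusters together gave 6.73 CPM, a ratio of 38.2 [35.6, 41.0]. Tcf21 reached 106 CPM and 64.1% of cells there, a ratio of 72.8 [63.2, 84.2] over the rest. Lhx2 had an interval of 89.9 to 100.4 CPM and was detected in 530 cells, a ratio of 60.0 [52.2, 69.1], and Msc 62.9 CPM and 43.5% of cells, a ratio of 82.8 [68.2, 101]. The determination factors were sparse even there. Myf5 reached 7.49 CPM from 101 UMIs in 88 cells (8.30%), a ratio of 49.7 [31.4, 81.9]. Myod1 gave 14 UMIs in 13 cells (1.23%), a ratio of 52.8 with a wide interval [14.7, 287]. The ectodermal epithelium-like cells (3661 cells, median 11430 UMIs) served as the class in which the muscle factors are not expected. There Msc was detected in 0.901% of cells, Tcf21 in 1.20%, Lhx2 in 1.61%, Myf5 in 0.0819% and Myod1 in 0.0273%, so a share of that size was read as background.

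The mesoderm-like cluster thus held most of the counts of each gene in the E9.5 library, at 88.0% of Msc, 86.5% of Tcf21, 84.1% of Lhx2, 81.5% of Myf5 and 82.4% of Myod1 UMIs. The share of Tbx1 was lower, 77.2% [75.9, 78.4]. Within the cluster, Tbx1 was counted at 4 or more UMIs in 404 cells, at 2 or 3 in 282, at 1 in 174 and at 0 in 200, with at most 18 in a cell. Tcf21 was at 4 or more UMIs in 94 cells and at 0 in 381, Lhx2 in 104 and 530, and Msc in 45 and 599. Of the 88 cells with Myf5, 76 had a single UMI and none more than 3.

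**Figure D1:**
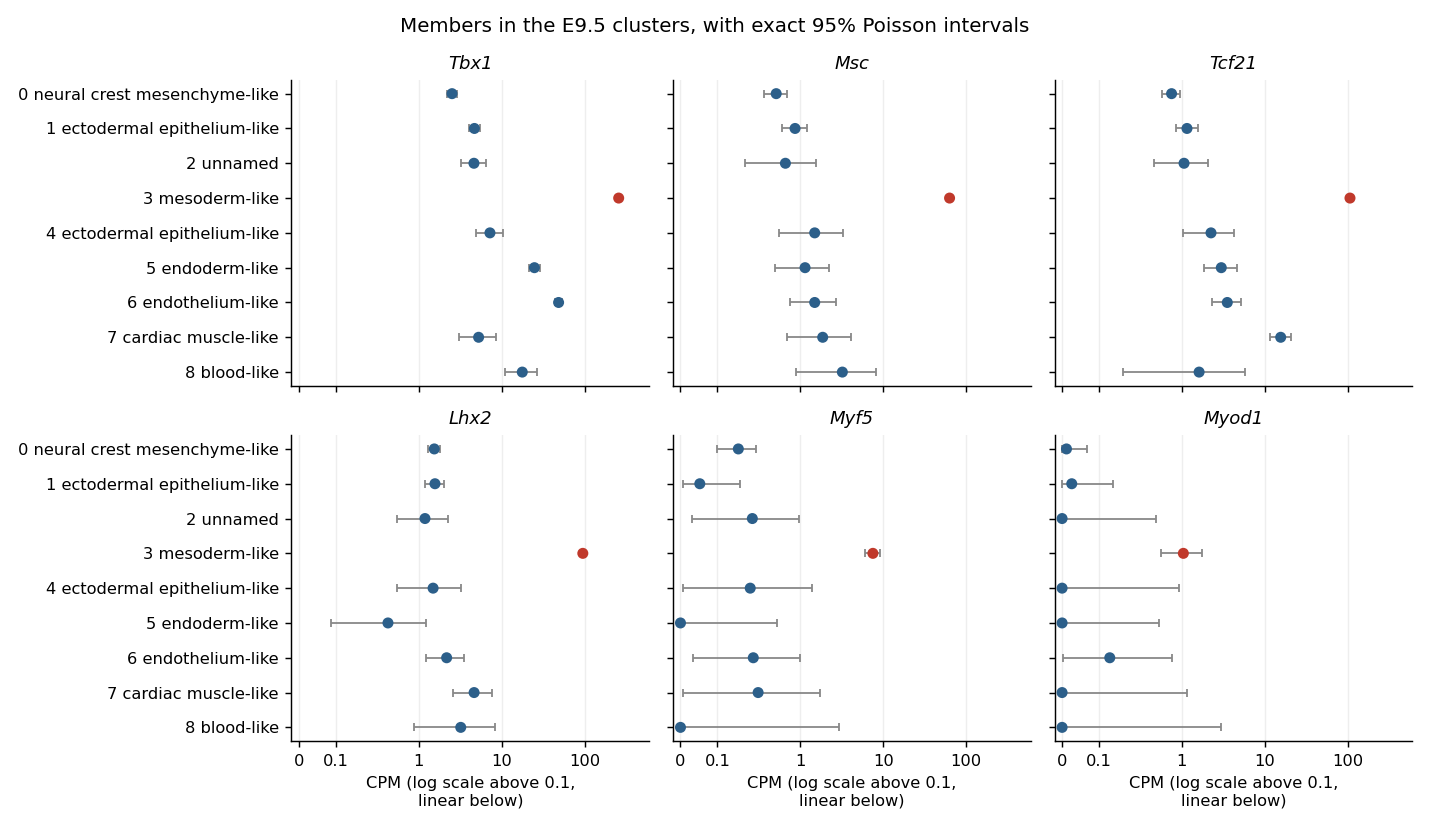
Level of each gene in the 9 E9.5 clusters, in CPM of summed cells on an axis that is logarithmic above 0.1 and linear below, with exact 95% Poisson intervals. The red point is the mesoderm-like cluster, which is highest in all 6 panels, at 257 CPM for Tbx1 and 1.04 CPM for Myod1. Tbx1 in endothelium-like and endoderm-like cells and Tcf21 in cardiac muscle-like cells lie above the other blue points of their panels. So does Lhx2 in cardiac muscle-like cells, at 4.65 CPM, with an interval that overlaps that of blood-like cells.

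Outside the mesoderm-like cluster, Tbx1, Tcf21 and Lhx2 were above the ectodermal level in some other classes. Tbx1 was at 48.5 CPM in endothelium-like cells, detected in 34.6% of them, which was 9.83 times [8.27, 11.7] the 4.93 CPM of the ectodermal cells. In endoderm-like cells it was at 24.8 CPM [21.3, 28.8] and in 17.2% of cells, 5.04 times [4.10, 6.19] the ectodermal level. Blood-like cells had 17.7 CPM of Tbx1 [11.1, 26.7], from 22 UMIs in 8 of 77 cells. That interval overlaps the endoderm-like one. The neural crest mesenchyme-like cells, the largest and deepest of the big classes (median 16932 UMIs), had 2.52 CPM and a UMI in 3.83% of cells. Tcf21 was at 15.5 CPM [11.5, 20.4] in cardiac muscle-like cells, 12.3 times [8.22, 18.5] the ectodermal level. In endothelium-like cells Tcf21 was at 3.52 CPM, from 26 UMIs, 2.80 times [1.68, 4.56] that level. In endoderm-like cells it was at 2.98 CPM, from 21 UMIs, 2.37 times [1.36, 4.00] that level. Lhx2 was at 4.65 CPM in cardiac muscle-like cells, from 15 UMIs, 2.97 times [1.58, 5.27] the ectodermal level. It was at 0.426 CPM, from 3 UMIs, in endoderm-like cells. Msc stayed between 0.512 CPM in neural crest mesenchyme-like and 3.21 CPM in blood-like cells, with overlapping intervals for most of these classes.

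The ratio of Tbx1 UMIs to those of Msc, Tcf21 and Lhx2 together was also compared between the classes. In the mesoderm-like cluster, Lhx2, Tcf21 and Msc gave 1282, 1434 and 849 UMIs. In neural crest mesenchyme-like cells they gave 129, 63 and 43, so Lhx2 rather than Tcf21 was the largest part there. The ratio was 0.973 [0.928, 1.02] in the mesoderm-like cluster and 0.902 [0.746, 1.09] in neural crest mesenchyme-like cells, with overlapping intervals. The larger ectodermal epithelium-like cluster gave 1.31 [1.04, 1.64]. Endothelium-like cells gave 6.75 [5.05, 9.19] and endoderm-like cells 5.47 [3.74, 8.24], both above the mesoderm-like ratio. Cardiac muscle-like cells gave 0.239 [0.132, 0.411], below the mesoderm-like ratio. The part of free RNA or mixed droplets in these ratios was not tested.

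The same genes were next compared between gates that use surface markers only. Cells with no UMI of Epcam, an epithelial adhesion molecule, and none of Cdh5, an endothelial cadherin, numbered 7530 (median 13365 UMIs), and cells with at least 1 Epcam UMI 4816 (median 13472 UMIs). Tbx1 was at 35.9 CPM [34.7, 37.1] in the Epcam-negative, Cdh5-negative cells and 14.2 CPM [13.3, 15.1] in the Epcam-positive cells, a ratio of 2.53 [2.36, 2.73]. Tcf21 was at 14.6 and 3.91 CPM, a ratio of 3.74 [3.27, 4.28], and Lhx2 at 13.2 and 3.97 CPM, a ratio of 3.33 [2.91, 3.82]. Msc was at 8.48 and 2.42 CPM, a ratio of 3.50 [2.95, 4.17]. Myf5 was at 1.04 and 0.331 CPM, a ratio of 3.15 [1.97, 5.26], and Myod1 gave 12 and 3 UMIs. A gene was called different when its fold reached 2 with 5 CPM added to both sides and it was detected in no less than 1% of cells in the higher group. By this rule Tcf21, Tbx1 and Lhx2 were higher in the Epcam-negative, Cdh5-negative cells, with log2 folds of 1.14, 1.09 and 1.02. They were 3 of the 5 genes that reached the share of cells, while 0.480% of 12908 genes were called higher and 3.12% lower. Myf5, at a log2 fold of 0.18, could not be called. From 1.04 CPM, with 5 CPM added, no level in the other gate would give a fold of 2. Msc, at 0.86, did not reach the fold, and Myod1 did not reach the share of cells. These calls lie close to the fold of 2: Tbx1 missed it without an upper limit of genes per cell (0.99) and in cells with a Y-linked UMI (0.89), Lhx2 in cells with Xist (0.95), and Msc reached it with 1 CPM added (1.47). The 398 Cdh5-positive, Epcam-negative cells (median 14638 UMIs) had 31.7 CPM of Tbx1 [27.4, 36.6] in 28.1% of cells.

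Few cells accounted for much of the signal in the Epcam-positive gate. Of its 4816 cells, 127 belonged to the mesoderm-like cluster, and these held 472 of the 941 Tbx1 UMIs, 173 of 260 Tcf21, 180 of 264 Lhx2, 107 of 161 Msc and 14 of 22 Myf5 UMIs. In these 127 cells Tbx1 was at 242 CPM, close to the 260.1 CPM of the 921 mesoderm-like cells of the other gate. Without them, the 4689 Epcam-positive cells left had 7.27 CPM of Tbx1, 1.35 of Tcf21, 1.30 of Lhx2, 0.838 of Msc and 0.124 of Myf5. The ratios of the Epcam-negative, Cdh5-negative cells to these were 4.93 [4.48, 5.44] for Tbx1, 10.8 [8.72, 13.6] for Tcf21, 10.2 [8.14, 12.8] for Lhx2, 10.1 [7.69, 13.6] for Msc and 8.42 [4.11, 20.0] for Myf5. Cells with exactly 1 Epcam UMI had 27.6 CPM of Tbx1 and those with at least 2 had 9.46, a ratio of 2.92 [2.56, 3.32]. Twist1, a mesenchymal factor, was at 559.6 CPM and in 68.6% of cells with exactly 1 Epcam UMI, and at 78.6 CPM and in 31.7% of those with more. The part of mixed droplets or free RNA in these values was not tested.

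Most cells with several of the 6 genes lay in the mesoderm-like cluster. In the Epcam-negative, Cdh5-negative gate, 6167 cells (81.9%) had none of the genes, 635 had 1, 221 had 2, 288 had 3, 190 had 4, 28 had 5 and 1 cell had all 6. Of the 728 cells with at least 2, 679 (93.3%) were mesoderm-like. Another of the genes was found in 67.4% of the 1019 cells with Tbx1, 77.8% of 590 with Lhx2, 83.4% of 691 with Tcf21, 90.7% of 451 with Msc and 83.5% of 85 with Myf5. In the mesoderm-like cluster itself, 84 cells (7.92%) had none of the genes and 3 was the commonest number, in 322 cells (30.4%).

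The most frequent combination after Tbx1 alone (332 cells) was Tbx1 with Msc, Tcf21 and Lhx2 (164 cells). Tbx1 with Tcf21 and Lhx2 was found in 113 cells, Tbx1 with Msc and Tcf21 in 107, and Tbx1 with Tcf21 in 105. The cells with a single gene came from other classes more often than those with several. The gate as a whole, 7530 cells, held 4048 neural crest mesenchyme-like, 921 mesoderm-like, 219 cardiac muscle-like and 209 endothelium-like cells. Of the 332 cells with Tbx1 alone, 137 were neural crest mesenchyme-like, 100 mesoderm-like and 55 endothelium-like. Of the 131 with Lhx2 alone, 92 were neural crest mesenchyme-like. Of the 115 with Tcf21 alone, 34 were mesoderm-like, 34 cardiac muscle-like and 33 neural crest mesenchyme-like. Of 14 cells with Myf5 alone, 13 were neural crest mesenchyme-like, a class in which Myf5 was at 0.179 CPM and in 0.309% of cells.

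**Figure D2:**
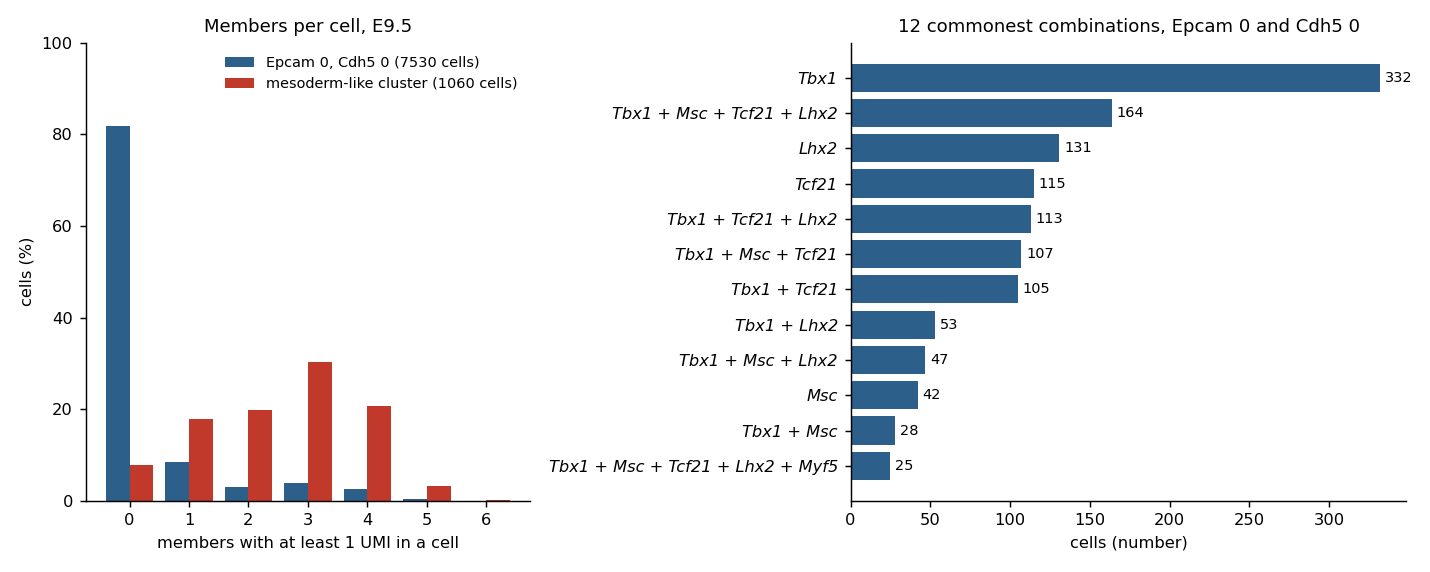
Left, share of cells (percent) by the number of the 6 genes with at least 1 UMI, for the 7530 Epcam-negative, Cdh5-negative cells (blue) and the 1060 mesoderm-like cells (red). Right, number of Epcam-negative, Cdh5-negative cells with each of the 12 commonest combinations, each bar a set of genes detected with none of the others. Tbx1 alone (332 cells) and the set of Tbx1, Msc, Tcf21 and Lhx2 (164 cells) lead.

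Since any 2 genes are found together more often in deep cells, joint detection was counted after every cell was thinned to 3100 UMIs. In the 6446 Epcam-negative, Cdh5-negative cells deep enough, 10 of the 15 pairs were found together in more cells than the product of their shares gives, with the lower bound of the ratio above 1. Over all pairs of these genes with any tested gene, 8.80% met that rule. Ratios ran from 5.95 [4.99, 7.04] for Tbx1 and Tcf21 (133 cells, 22.4 from the product) to 9.75 [4.46, 18.5] for Lhx2 and Myf5 (9 cells, 0.923 from the product). Tbx1 and Lhx2 were together in 132 cells, against 19.3, and Msc and Tcf21 in 47, against 7.08. The other 5 pairs involve Myod1, which had no UMI left after thinning. In the Epcam-positive gate 7 of 15 pairs met the rule, against 1.68% of all pairs there, and 3 did so once the mesoderm-like cells were left out, each from 1 to 3 cells.

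Inside the mesoderm-like cluster fewer pairs met that rule. Of 15 pairs in 1013 thinned cells, 1 met it, Tbx1 with Lhx2, found together in 141 cells against 119.9, a ratio of 1.18 [1.00, 1.37]. Tbx1 was in 506 of these cells, against 524 of 6446 in the gate, so pairs with Tbx1 can reach only low ratios here. Tcf21 was in 288 and Lhx2 in 240 of the 1013 cells, so pairs without Tbx1 can reach higher ratios. The interval, that of the joint share over a fixed product, is wide beside ratios close to 1. A pair not counted, such as Tbx1 with Msc (102 cells against 88.4, [0.949, 1.39]), is not shown to be unlinked. The pairs with Myod1 rest on 1 cell with it. Of all pairs of these genes with any gene, 0.580% lay above the product and 0.658% below in that cluster, and none of the 15 lay below. Msc and Tcf21, the related factors, were together in 51 cells against 50.3, a ratio of 1.01 [0.759, 1.32]. Lhx2 and Myf5 were together in 11 cells against 6.63, a ratio of 1.66 [0.830, 2.95]. Without thinning, 8 of 15 pairs lay above the product in the cluster, among them Lhx2 with Myf5 (66 cells against 44.0, ratio interval [1.17, 1.89]) and Myf5 with Myod1 (4 cells against 1.08, ratio 3.71 [1.01, 9.46]), but differences in depth between cells enter that count.

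**Figure D3:**
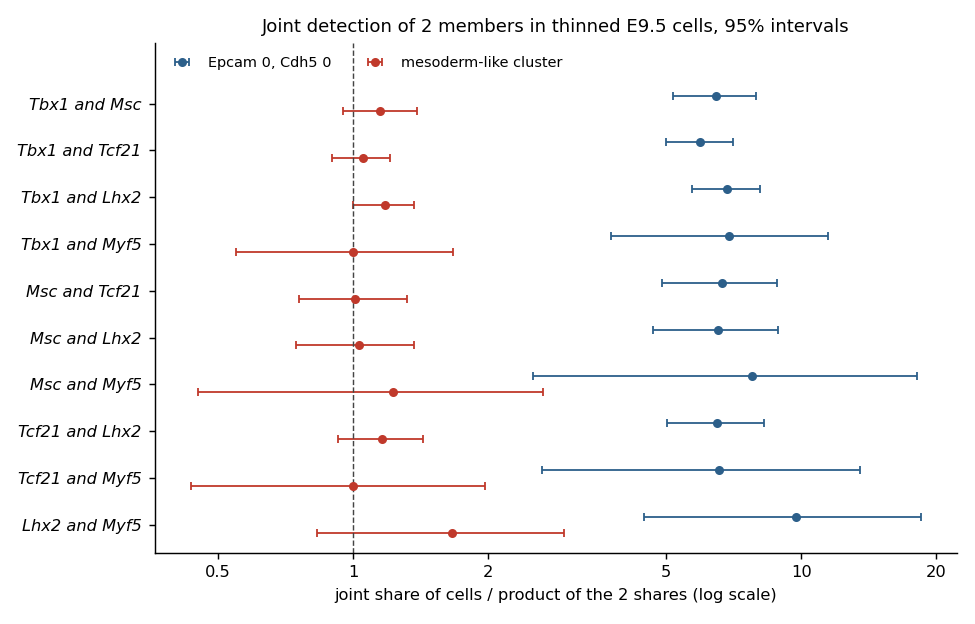
Joint share of cells divided by the product of the 2 shares (log axis) for the 10 pairs with thinned counts in the Epcam-negative, Cdh5-negative gate, with 95% intervals, in that gate (blue, 6446 cells) and in the mesoderm-like cluster (red, 1013 cells). All blue intervals lie above 1, between ratios of 5.95 and 9.75, whereas the red points lie between 1.00 and 1.66 (Lhx2 with Myf5), and only Tbx1 with Lhx2 has a lower bound above 1.

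The genes nearest to each factor were ranked by the phi coefficient of detection, a correlation of presence and absence, over the same 6446 cells. It is given as a description, since all points share a library. For Tbx1 they were Lhx2 (0.34), Gm266 and Pgf (0.33 each), Tcf21 (0.31) and Gng11 (0.30). For Lhx2 they were Tbx1 (0.34), Hlx (0.27), Igfbp5 and Gm266 (0.26 each) and Tcf21 (0.23). Tcf21 had Tbx1 (0.31), Tlx1 (0.26), Gm266 (0.24), Kazald1 and Igfbp5 (0.23 each), and Msc had Tbx1 (0.26), Hlx and Gm266 (0.24 each), Pgf and Igfbp5 (0.23 each). Tbx1 thus came first for each of Msc, Tcf21 and Lhx2. For Myf5, with 25 cells after thinning, the values were low, at 0.12 for Kazald1 and Pgf, 0.11 for Tbx1 and Lhx2 and 0.10 for Frat1. Among Epcam-positive cells the nearest genes to Tbx1 were Tcf21 (0.22), Pgf (0.15), Gm266 and Nrg1 (0.13 each) and Fabp3 (0.12).

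Cells with at least 2 of the 6 genes shared other factors of head mesoderm that their choice did not use. They were compared with cells with none in the Epcam-negative, Cdh5-negative gate (728 cells, median 12506 UMIs, against 6167 cells, median 13364) under the same fold rule, but with detection in no less than 5% of cells in the higher group. Of 21 listed head mesoderm genes, 19 could be tested, and 12 were higher and 1 lower, with a median log2 fold of 1.34 against 0.08 over all genes. All 10 markers by which the mesoderm-like cluster was named are in this list. Of all 9912 genes tested, 3.71% were higher and 1.09% lower. Fgf10, a growth factor of the second heart field and pharyngeal mesoderm, was at 49.4 against 1.88 CPM, a ratio of 26.2 [21.7, 31.9]. Ebf1, a helix-loop-helix factor, was at 177 against 20.3 CPM, a ratio of 8.74 [8.15, 9.37]. Cyp26a1, which degrades retinoic acid, was at 30.3 against 1.10 CPM, a ratio of 27.7 [21.6, 35.8]. Isl1, Eya4, Fgf8, Six2, Eya1, Ebf2 and Nkx2-5 were also called higher. Mef2c, a muscle and neural crest factor, was lower, at 34.3 against 180.1 CPM.

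Most genes of muscle commitment and differentiation fell short of the share of cells needed for a call in the same comparison. Of 20 listed, 7 reached it, 4 were higher and none lower. These were Cdkn1c, a cell cycle inhibitor (532 against 84.5 CPM), Myl4, an embryonic myosin light chain (49.7 against 5.58), Des, the intermediate filament desmin (44.2 against 17.5), and Hes6, a helix-loop-helix factor that promotes differentiation (30.8 against 12.5). Below that share, Myf6 (7 against 3 UMIs, ratio 17.9 [4.08, 107]), Cdh15 (5.27 [2.21, 12.1]) and Rgs4 (8.39 [5.40, 13.1]) had ratio intervals above 1. Those of Actc1 (0.616 [0.454, 0.820]) and Tnnc1 (0.289 [0.105, 0.643]) lay below 1. Myog, Mymk, Mymx and Chrna1 had no UMI in the 728 cells, nor in the 1060 cells of the mesoderm-like cluster, where 0 of 1060 cells allows a share of up to 0.283%. Of 7 genes of trunk and limb muscle progenitors, 2 could be tested and none was called, and Pax7 and Lbx1 had no UMI in the mesoderm-like cluster, with the same limit. Among 11 tested partners and inhibitors of helix-loop-helix factors, Id2 (595 CPM) and Hey1 (29.7 against 11.5 CPM) were higher and Twist1 was lower, at 135 against 688 CPM.

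The classes of the 2 groups differed as well. The 11 markers of neural crest mesenchyme summed to 424 CPM in the cells with at least 2 genes and 1710.3 CPM in those with none, with 9 of the 11 lower. The 10 markers of head mesoderm summed to 625 and 163 CPM, with 7 higher. Endothelial markers summed to 65.3 and 37.7 CPM and endodermal markers to 19.0 and 7.79 CPM, with 1 higher in each list and Cdh5 and Epcam at 0 by the gate. Blood markers summed to 1542 and 3355 CPM, cardiac muscle markers to 20.3 and 23.8 CPM with none called, and macrophage markers to 0.205 and 0.548 CPM with 6 of the 7 at 0. The comparison was therefore repeated among gate cells of the mesoderm-like cluster, 679 with at least 2 of the genes (median 12342 UMIs) and 79 with none (median 8416 UMIs), a difference in depth whose part in the result was not tested. There 1 of 20 tested head mesoderm genes was higher and 3 were lower, against 1.73% and 1.31% of 9989 genes. Eya4, a transcriptional cofactor, was higher, at 25.7 against 7.47 CPM (5 UMIs), a ratio of 3.44 [1.45, 10.7]. The forkhead factors Foxc2 and Foxc1 were lower, at 6.65 against 40.3 CPM and 21.5 against 58.3 CPM, with ratios of 0.165 [0.103, 0.271] and 0.370 [0.261, 0.536]. Aldh1a2, which makes retinoic acid, had 0 against 4 UMIs. Ebf1, at 186 against 131 CPM, did not reach the fold. None of 7 myogenic genes was called, and Twist1 (105 against 275 CPM) and its relative Twist2 (11.7 against 29.9) were lower.

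**Figure D4:**
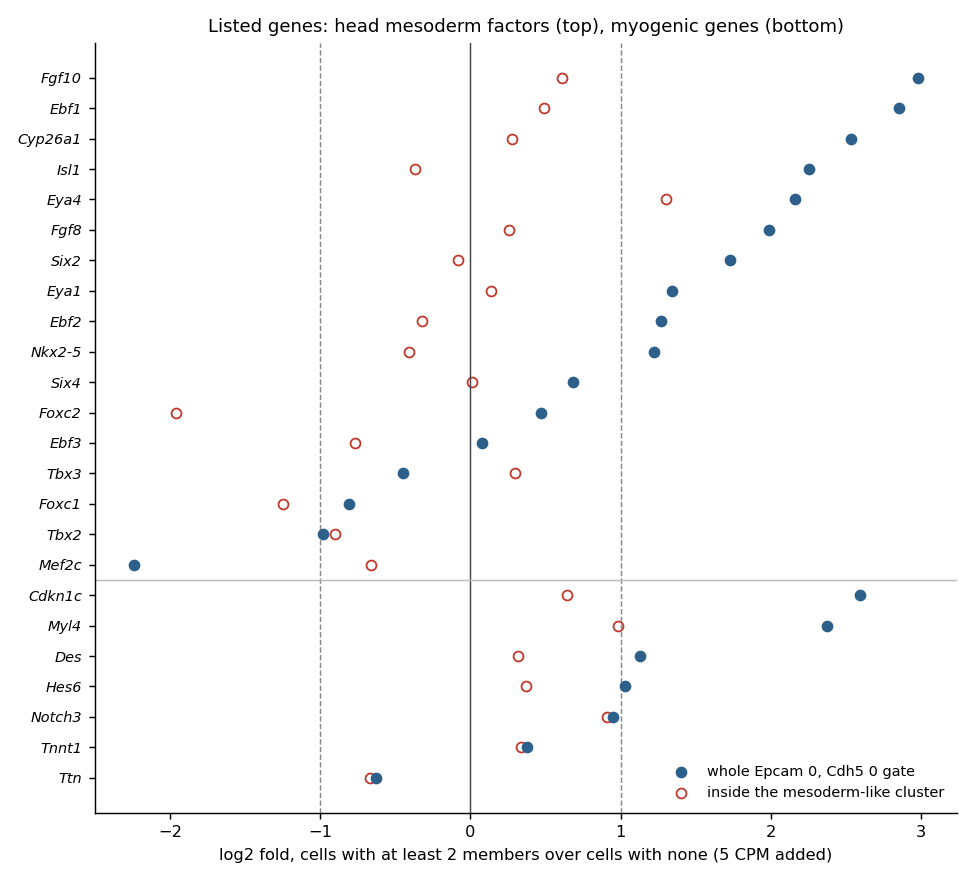
Log2 fold (5 CPM added to both sides) of cells with at least 2 of the 6 genes over cells with none, for tested head mesoderm genes (upper) and myogenic genes (lower), in the whole Epcam-negative, Cdh5-negative gate (filled) and in its mesoderm-like cells (open). Dashed lines mark a 2-fold difference. Filled points reach 2.98 for Fgf10 and -2.24 for Mef2c, while among open points Eya4 is above and Foxc1 and Foxc2 are below the lines.

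Joint detection inside the mesoderm-like cluster was also counted for the listed genes. Among the pairs that the 5 factors other than Myod1 form with 39 listed genes, 2 lay above the product and 3 below. Of all pairs of a factor with any gene there, 0.580% lay above and 0.658% below. With so few pairs, the listed genes cannot be told apart from those shares, and the pairs below are given as a description. Tcf21 with Cdkn1c was above the product, in 219 cells against 193, a ratio of 1.14 [1.00, 1.28]. Tcf21 was with Twist1 in 59 cells against 81.6, a ratio of 0.723 [0.554, 0.925], and Lhx2 with Twist1 in 48 against 68.0, a ratio of 0.706 [0.524, 0.929]. Lhx2 was with Foxc2 in 3 cells against 9.95, a ratio of 0.301 [0.0622, 0.879].

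Cells with Myf5 or Myod1 were then compared with cells that had an upstream factor only. In the Epcam-negative, Cdh5-negative gate, 79 cells had a UMI of Tbx1, Msc, Tcf21 or Lhx2 and of Myf5 or Myod1 (median 11752 UMIs), and 1269 had an upstream factor without them (median 13470 UMIs). Of these, 98.7% and 60.1% were mesoderm-like. Lhx2 was higher with a determination factor, at 159.6 against 61.0 CPM, a ratio of 2.62 [2.21, 3.09], while 0.437% of 10307 genes were called higher and 1.14% lower. Tbx1 was at 324 against 172 CPM, Tcf21 at 125 against 70.3 and Msc at 70.0 against 41.0, with log2 folds of 0.90, 0.79 and 0.71 that did not reach the rule. The choice of both groups used Tbx1, Msc, Tcf21 and Lhx2 themselves, which limits the reading of their values here. Of 19 tested head mesoderm genes none was higher, and Mef2c (22.7 against 95.5 CPM) and Foxc2 (1 UMI against 194) were lower. None of 7 tested myogenic genes was called, with a median log2 fold of 0.38 against 0.02 over all genes, and Twist1 was lower, at 66.0 against 350.3 CPM. Below the share of cells needed for a call, Myf6 had 3 UMIs against 5, a ratio of 10.5 [1.62, 53.8]. Actc1 had 3 against 180, a ratio of 0.291 [0.0594, 0.863]. Neural crest mesenchyme markers summed to 288 against 905 CPM, with 8 of 11 lower.

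A further comparison took all 1060 cells of the mesoderm-like cluster, with no gate and no upstream factor required. The 97 cells with Myf5 or Myod1 (median 12772 UMIs) had 153 CPM of Lhx2 and the 963 others (median 12231 UMIs) 88.7 CPM, a ratio of 1.73 [1.48, 2.01] and a log2 fold of 0.76 that did not reach the rule. Lhx2 was detected in 74.2% and 47.6% of these cells. The ratio was 1.17 [1.05, 1.30] for Tbx1, 1.12 [0.942, 1.32] for Tcf21 and 0.988 [0.777, 1.24] for Msc. Foxc2 was lower, with 1 UMI against 196, a ratio of 0.0472 [0.00119, 0.266], where 0.0196% of 10202 genes were higher and 0.167% lower. None of the 7 tested myogenic genes was called.

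In the mesoderm-like cluster, levels were also compared between cell cycle phases and between cells of male and female embryos. Tbx1 was at 226 CPM [213, 239.7] in cells assigned to G1, 251 [232, 271] in S and 285 [272, 299] in G2M, where the G1 and G2M intervals do not overlap, with median depths of 11310, 11469.5 and 14654 UMIs. Tcf21 was at 98.1 [89.5, 107], 125 [111, 139] and 105 [97.1, 114] CPM, where the G1 and S intervals do not overlap. Msc was at 66.3, 66.5 and 58.7 CPM and Lhx2 at 94.0, 109 and 90.0, with overlapping intervals. Myf5 was at 5.13 [3.32, 7.57], 11.4 [7.64, 16.4] and 7.73 [5.68, 10.3] CPM, where the G1 and S intervals just separate. These Myf5 levels rest on 25, 29 and 47 UMIs. The intervals of its share of cells overlap between G1 (3.71% to 8.42%) and S (7.12% to 15.8%). Cells with a Y-linked UMI (279) and cells with Xist and none (616) had 257 and 256 CPM of Tbx1, 109.6 and 106 of Tcf21 and 70.5 and 59.1 of Msc. Lhx2 was at 112 [101, 123] and 83.9 [77.7, 90.4] CPM. These are cells of pooled embryos, so sex and embryo cannot be told apart.

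Epcam-positive cells of E9.5 were divided into endodermal and other cells, and Tbx1 was the only one of the 6 genes detected in at least 5% of either. Endodermal cells, taken as those with a UMI of Foxa2, Shh or Pax1 (682 cells, median 13448 UMIs), had 21.5 CPM of Tbx1 in 17.7% of cells, and the other 4134 cells (median 13474 UMIs) 12.9 CPM in 7.74%. The ratio was 1.67 [1.42, 1.95] and the log2 fold 0.57, which did not reach the rule, as it did for 0.524% of 10310 genes. Outside the mesoderm-like cluster the values were 19.7 and 5.14 CPM, a ratio of 3.82 [3.16, 4.61] and a log2 fold of 1.28. The 3 markers are not confined to the endoderm-like cluster. Foxa2 was in 120 endoderm-like and 167 ectodermal epithelium-like cells, Shh in 92 and 96 and Pax1 in 299 and 42. Both ratios thus compare cells by these markers, and not endoderm-like with ectodermal epithelium-like cells. Of 8 tested genes of the Tbx1 pathway in the pharynx, 2 were higher in the endodermal cells, the pouch gene Pax9 (38.1 against 1.44 CPM) and Nkx2-3 (254 against 124 CPM). Twist1 was detected in 30.2% of the endodermal and 43.0% of the other cells.

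Within the endoderm-like cluster, Tbx1 was higher in cells with the pouch gene Pax9 or with Vgll2, a transcriptional cofactor. It was at 42.3 CPM in cells with Pax9 and 11.9 in cells without, a ratio of 3.57 [2.54, 5.08], and at 38.2 and 7.77 CPM with and without Vgll2, a ratio of 4.92 [3.18, 7.91]. In thinned cells, of which 30 had Tbx1, 14 of 17 zone genes were in at least 1% of cells, and these 2 were found with Tbx1 above the product and none below, at ratios of 2.20 [1.06, 4.02] and 2.10 [1.27, 3.25]. Over all 10718 genes tested, 0.690% lay above and 0.289% below. Tbx1 was at 44.4 and 18.8 CPM with and without Foxa2, an endodermal forkhead factor, and at 40.9 and 21.3 with and without Shh. In thinned cells Tbx1 was with Foxa2 in 1 cell, a ratio of 0.553 [0.0140, 3.07]. It was with Shh in 5, a ratio of 2.20 [0.716, 5.11], so both intervals include 1. Tbx1 was at 7.11 and 26.4 CPM with and without Nkx2-1, a thyroid factor. That ratio was 0.269 [0.0726, 0.702] from 4 UMIs in 65 shallower cells (median 7623 UMIs). The ratio for Pax1 was 1.21 [0.883, 1.68]. In ectodermal epithelium-like cells, Tbx1 was at 36.7 CPM in the 25 cells with Pax9 and at 4.66 in the rest, a ratio of 7.87 [4.12, 13.8] that rests on 13 UMIs. By CPM, 3 of the 17 zone genes had a ratio above 1 there and 1 below. Beside Pax9, these were Vgll2 (6.19 against 3.43 CPM, 1.81 [1.34, 2.46]) and Pax1 (20.4 against 4.71, 4.32 [2.20, 7.72]), and Trp63 was below (0.742 [0.556, 0.986]). In thinned cells of that class, none of the 10 zone genes in at least 1% of cells was with Tbx1 above or below the product, against 0.979% and 0.411% of 10215 genes. The part of endodermal cells in that class was not tested.

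**Figure D5:**
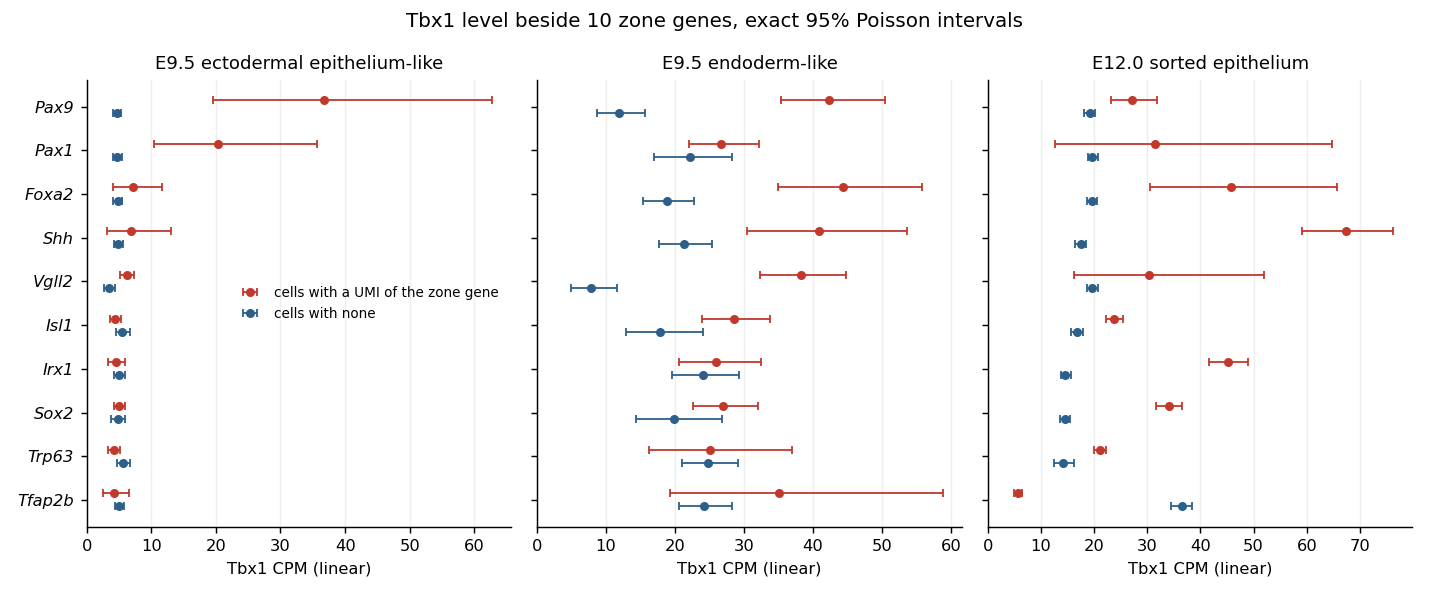
Tbx1 level (CPM, linear axis, exact 95% Poisson intervals) in cells with (red) and without (blue) a UMI of each of 10 zone genes, in E9.5 ectodermal epithelium-like cells, E9.5 endoderm-like cells and the E12.0 sorted epithelium. Tbx1 is higher beside Pax9 and Vgll2 in endoderm-like cells (42.3 and 38.2 CPM), higher beside Shh (67.3 CPM) and lower beside Tfap2b (5.62 CPM) at E12.0.

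In the sorted E12.0 epithelium, Tbx1 was the one factor of the 6 with a clear level. It gave 1541 UMIs, 19.8 CPM [18.8, 20.8], in 10.4% of 11355 cells. Lhx2 gave 32 UMIs (0.411 CPM), Myod1 19 and Msc 2. Tcf21 and Myf5 gave none, and 0 of 11355 cells allows a share of up to 0.0264%. Cells with Epcam (9536, median 6542 UMIs) had 20.5 CPM of Tbx1 and the 1819 cells with no Epcam and no Cdh5 UMI (median 5558 UMIs) between 12.7 and 17.6 CPM by their interval. The E9.5 Epcam-positive cells had 14.2 CPM, or 7.27 without mesoderm-like cells, but the libraries differ in stage, sort and dissociation together, and these effects cannot be told apart.

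At this stage Tbx1 varied strongly across the epithelium. It was at 67.3 CPM in cells with Shh, a ligand of tooth and taste placodes, and 17.5 in cells without, a ratio of 3.86 [3.35, 4.42]. With and without Irx1, a homeodomain factor, it was at 45.1 and 14.6 CPM, a ratio of 3.09 [2.79, 3.43], and with and without Sox2, a progenitor factor, at 34.1 and 14.5 CPM. The lowest levels lay beside Tfap2b, an AP-2 factor, at 5.62 against 36.5 CPM, a ratio of 0.154 [0.133, 0.177], and beside the chemokine gene Cxcl14, at 9.40 against 35.3 CPM, a ratio of 0.266 [0.238, 0.298]. In cells thinned to 4100 UMIs, 13 of the 17 zone genes were in at least 1% of cells, and 8 of these were found with Tbx1 above the product and 2 below. Over all 11146 genes tested, 6.18% lay above and 5.59% below. Shh had a thinned ratio of 3.12 [2.42, 3.96], Irx1 of 2.30 [1.96, 2.69] and Sox2 of 1.80 [1.57, 2.06]. Tfap2b had 0.179 [0.136, 0.233] and Cxcl14 0.356 [0.297, 0.424]. Trp63, a factor of basal epithelium, was at 1.08 [0.985, 1.18], so its ratio of 1.49 in CPM was not matched by joint detection at equal depth.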

How the data were processed

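Single cells of 2 pooled mouse libraries, E9.5 mandibular arch and sorted E12.0 mandibular epithelium, were captured by the 10x Chromium 3' v3 chemistry. The authors aligned the reads to mm10 and deposited filtered matrices of raw UMI counts per gene and cell. The submitters' processing notes name Cell Ranger 2.0.0, while per the file headers the E12.0 matrix was written by version 3.1.0 and the E9.5 matrix by 6.1.2. How the choice of version bears on the counts was not tested.

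Cells with 200 to 5500 genes and at most 10% mitochondrial UMIs were kept, which left 500 to 40102 UMIs per cell at E9.5 and 503 to 21712 at E12.0. Counts were summed over the cells of a group, since cells of a library are not replicates. Levels have exact Poisson intervals, shares Clopper-Pearson intervals and ratios exact conditional intervals, all at 95%. A gene was called by size: its fold had to reach 2 after 5 CPM was added to either side, and its detection 1% (gates) or 5% (other groups) of cells in the higher group. For joint detection, cells were thinned to 3100 UMIs at E9.5 and 4100 at E12.0, and 1233 and 1024 shallower cells were left out. A limit beside a share of 0 is 3 counts of the total. E9.5 cells were clustered with SCTransform in Seurat 5.3.0 (sctransform 0.4.2, R 4.3.3; 3000 variable features, scores for S, G2M, sex-linked and 2 lincRNA genes regressed out, 30 principal components, resolution 0.2), with 61 listed genes left out of the features. A cluster took a name when at least 3 listed markers were raised 1.5-fold in 5% of its cells. Doublets were called with Scrublet in scanpy 1.11.5 and kept. Other steps used Python 3.11.15, numpy 2.4.6, scipy 1.17.1 and pandas 2.3.3, and were tested on simulated data.

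The 6 genes and all lists were chosen with earlier results of these data known. Named were the 6 genes, the 4 largest folds in each direction among the called genes of a list, list genes at 0, the 5 genes nearest to each factor by phi and the 5 leading genes of the cluster. Some list genes that this rule takes in are counted but not reported here by name. Other genes given with values, such as Twist1 within the Epcam-positive gate, Ebf1 inside the mesoderm-like cluster and the zone genes described beside Tbx1, were picked after their values were seen. Alternatives covered the cell filters, doublets, weighting of cells, gates, thinning, sex of the embryo, fold, added CPM and clustering. Those that use the mesoderm-like cluster, Twist1 or thinning to 10000 UMIs were chosen after seeing the data.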

Additional observations from a re-analysis of the deposited data

How the results depend on the processing

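No paired analysis was possible because each stage has 1 library. Of 82 values recomputed under an alternative for the main comparisons, 61 stayed close to the reported value and 21 moved. Only the endodermal log2 fold of Tbx1 had a direction that could reverse, and it kept it. Counts were taken as close within a wide margin, so 15 pairs without thinning passed as close to 10 in the Epcam-negative, Cdh5-negative gate. With a fold of 3, the number of factors higher in the Epcam-negative, Cdh5-negative gate fell from 3 to 0. The 10 pairs found together in that gate became 1 inside and 1 outside the mesoderm-like cluster, and 4 inside it at 10000 UMIs per cell. The highest ratio that a pair can reach is lower inside the cluster, and lowest for pairs with Tbx1, so these counts are not on equal terms. The 7 pairs of the Epcam-positive gate became 15 without thinning, 4 in cells with a Y-linked UMI, 4 with at least 2 Epcam UMIs, 4 when Twist1 was also absent and 3 without mesoderm-like cells. The 17 list genes called in cells with at least 2 of the factors became 4 inside the mesoderm-like cluster. The 2 called with Myf5 or Myod1 became 4 without an upper limit of genes, 4 in cells with Xist, 4 with 1 CPM added, 1 at a fold of 3 and 1 inside the mesoderm-like cluster. The endodermal log2 fold of Tbx1 was 0.38 in cells with Xist, 1.16 with at least 2 Epcam UMIs, 1.27 when Twist1 was also absent and 1.28 without mesoderm-like cells, against 0.57. The E12.0 level of Tbx1 was 24.0 CPM at up to 5% mitochondrial UMIs and 18.7 as a mean over cells, against 19.8. The cause of these shifts was not tested. All 6 factors stayed highest in 1 cluster under the 4 other clusterings. For single factors between the gates, 68 of 78 values kept their call. All values of Myf5 and Myod1 are among the 68, although neither gene could be called with 5 CPM added. Calls were lost by Tbx1 (0.99 without an upper limit of genes, 0.89 in cells with a Y-linked UMI), by Lhx2 (0.95 in cells with Xist) and by Tbx1, Tcf21 and Lhx2 at a fold of 3. Msc gained a call with 1 CPM added (1.47), with at least 2 Epcam UMIs (1.11), when Twist1 was also absent (1.21) and without mesoderm-like cells (1.21). Myod1 gave 17 UMIs in all E9.5 cells, which limits the precision of its values.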
